A study of Mus musculus with 30 samples.

Results

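The chromatin response of PKA knockout (KO) mouse CD4 T cells to activation was measured by ATAC-seq, in which a transposase cuts and tags open DNA, so that more reads at a site mean more open chromatin. The response is the difference between 3 activated and 3 naive KO libraries, which are 6 of the 30 samples of the series, taken over 110808 genomic sites that were counted identically in all of them. Naive CD4 T cells came from spleen and lymph nodes, were enriched with a kit and sorted by FACS. The activated KO libraries come from such cells after 3 days with antibodies to CD3 and CD28. By its title, the study asks how PKA and CREB signalling bears on responsiveness to IL-12 and on the Th1 fate. Control (WT) cells were handled in the same manner, with 3 naive and 3 activated libraries, and RNA-seq libraries exist for the same 4 groups. The labels name neither the PKA gene that was removed, nor the promoter or Cre line that removed it, nor the animals' age or strain. Nor is it stated whether a group's 3 libraries are 3 animals. The p-values therefore reflect only how these samples vary. Part of that variation may be technical, although RNA of sex-linked genes, given below, shows that a group's libraries are not all from the same animals.

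PKA is the kinase switched on by cyclic AMP. At rest its regulatory subunits hold the catalytic subunits inactive. Cyclic AMP releases them, and they phosphorylate, among others, the transcription factor CREB, which binds the cyclic AMP response element (CRE). In T cells, antigen receptor and CD28 signals bring NFAT, AP-1 and NF-kB to the DNA, open the chromatin of cytokine and effector genes, and close that of genes that keep naive cells quiescent and recirculating. IL-12 acts through its receptor and STAT4, and with T-bet drives the Th1 fate.

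The promoters below belong to genes around which the results turn, and each holds a counted site. Each run is the 250 bases before the annotated start, 5′ to 3′ on the gene's strand, from RefSeq on GRCm38.p6, the assembly that mm10 carries. Capitals mark matches to the short motifs defined further on. The first 4 genes act in activated or Th1 cells. Tbx21 (chr11:97115332-97115581, minus strand) encodes T-bet, Tnfrsf4 (chr4:156013445-156013694, plus strand) the costimulatory receptor OX40, Gzmb (chr14:56262335-56262584, minus strand) the cytotoxic protease granzyme B, and Il12rb2 (chr6:67376189-67376438, minus strand) the signalling chain of the IL-12 receptor. The other 3 keep the naive state. Klf2 (chr8:72318812-72319061, plus strand) drives genes of recirculation, Satb1 (chr17:51833291-51833540, minus strand) organises T cell chromatin, and Tcf7 (chr11:52282596-52282845, minus strand) encodes TCF-1.
Tbx21: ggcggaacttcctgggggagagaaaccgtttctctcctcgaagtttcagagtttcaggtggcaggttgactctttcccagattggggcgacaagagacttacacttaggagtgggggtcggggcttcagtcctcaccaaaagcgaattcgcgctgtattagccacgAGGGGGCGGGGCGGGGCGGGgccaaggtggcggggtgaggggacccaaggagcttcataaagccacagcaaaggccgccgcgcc
Tnfrsf4: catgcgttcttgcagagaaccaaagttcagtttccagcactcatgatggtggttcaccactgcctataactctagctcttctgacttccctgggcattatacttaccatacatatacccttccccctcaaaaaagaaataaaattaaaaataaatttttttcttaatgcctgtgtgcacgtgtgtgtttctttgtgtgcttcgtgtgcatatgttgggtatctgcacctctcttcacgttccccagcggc
Gzmb: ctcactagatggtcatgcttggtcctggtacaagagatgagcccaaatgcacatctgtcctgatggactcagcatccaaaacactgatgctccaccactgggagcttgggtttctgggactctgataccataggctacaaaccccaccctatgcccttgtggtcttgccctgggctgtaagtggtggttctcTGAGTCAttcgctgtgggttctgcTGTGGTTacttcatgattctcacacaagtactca
Il12rb2: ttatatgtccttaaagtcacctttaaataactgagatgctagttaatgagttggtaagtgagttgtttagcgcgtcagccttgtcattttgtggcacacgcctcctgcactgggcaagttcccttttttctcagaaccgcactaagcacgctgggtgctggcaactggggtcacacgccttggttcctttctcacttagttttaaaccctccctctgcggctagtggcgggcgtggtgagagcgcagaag
Klf2: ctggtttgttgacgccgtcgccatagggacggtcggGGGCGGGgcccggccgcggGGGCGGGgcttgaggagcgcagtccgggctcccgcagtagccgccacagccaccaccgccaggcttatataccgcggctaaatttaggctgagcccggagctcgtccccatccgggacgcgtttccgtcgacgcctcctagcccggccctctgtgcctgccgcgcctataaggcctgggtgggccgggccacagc
Satb1: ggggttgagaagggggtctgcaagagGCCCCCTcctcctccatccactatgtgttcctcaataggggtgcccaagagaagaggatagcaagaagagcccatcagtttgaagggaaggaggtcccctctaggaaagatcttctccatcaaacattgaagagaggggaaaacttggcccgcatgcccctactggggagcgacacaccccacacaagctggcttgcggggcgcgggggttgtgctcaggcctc
Tcf7: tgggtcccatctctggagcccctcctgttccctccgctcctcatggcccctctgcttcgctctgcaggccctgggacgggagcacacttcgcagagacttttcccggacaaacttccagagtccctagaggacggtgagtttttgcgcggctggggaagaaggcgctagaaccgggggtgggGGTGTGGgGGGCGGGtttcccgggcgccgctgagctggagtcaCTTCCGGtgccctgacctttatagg

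ATAC libraries held 18522373 to 25318916 counts in sites, and RNA libraries 8272201 to 11950488 counts in named genes. Prkaca, which encodes the main catalytic subunit of PKA, stood at 2.04, 2.39 and 2.57 CPM (counts scaled to library size) in RNA of naive KO and at 0.92, 1.45 and 0.972 in activated KO. In WT it stood at 29.3 to 39.3 CPM in naive and 43.2 to 55.5 in activated cells, so no KO library overlapped a WT library. In bulk libraries, fewer cells of a type and less RNA per cell cannot be told apart. The 10 T cell markers summed to 6000 to 6450 CPM in naive and 3150 to 3160 in activated KO, with none at 0. The 8 B cell markers summed to 6.66 to 8.26 CPM in naive and 5.60 to 8.75 in activated KO, above the 2.75 to 4.59 and 1.52 to 3.04 of WT, and 2 of them, Pax5 and Blk, were at 0 in every activated KO library. The 8 myeloid markers reached at most 9.57 CPM, the 4 NK markers at most 0.226 and the 5 erythroid markers at most 18.9 in KO. Siglech, Ncr1 and Klra8 were at 0 in every KO library, and the globin genes Hba-a1 and Hbb-bs in every activated one. Their part in the results was not tested. Replicate 1 of every group stood apart from replicates 2 and 3 in the same manner, with 1 to 4 counts of Xist and 763 to 1049 of Ddx3y against 2354 to 8068 and 0 to 1. Xist is transcribed from the inactive X chromosome of females, and Ddx3y lies on the Y chromosome. By these genes replicate 1 was male and the others were female in every group. Replicate 1 also differed from the others at 60 sites in naive cells, of which 35 lay on chromosome X and 24 in one stretch of chromosome 8. All groups share this split, and counts without replicate 1 are given where they differ. A site of the Cd4 gene (chr6:124885164-124885564, gene body) was higher in KO than in WT in both states, with 379 to 415 CPM against 83.3 to 93.6 in naive and 145 to 155 against 26.7 to 26.8 in activated cells. The cause was not tested.

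Activation remodelled the chromatin of KO cells at most sites, and more sites gained than lost accessibility. Of 110797 sites tested, 67187 (60.6%) opened and 31196 (28.2%) closed in KO, by edgeR's quasi-likelihood test at an adjusted p under 0.05 on counts scaled to library size. With a log2 difference of at least 1 besides, 55851 (50.4%) opened and 20492 (18.5%) closed. The median site had a log2 difference of 1.04, opened sites had a median of 2.71 and closed sites of -1.62. The split between opening and closing depended on the scaling. TMM factors, which centre the sites of middling change between libraries, lowered the median site by 0.60. Opened sites then made up 56.2% of calls (55076 opened, 43008 closed) in place of 68.3%. Sites past the test in the same direction under all 5 scalings tried (library size, TMM, RLE, upper quartile and a loess curve on site strength) are called stably opened or closed from here on: 31924 sites (28.8%) opened and 27984 (25.3%) closed stably in KO.

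The strongest gains rose from almost nothing. A site in Runx2, a Runt family transcription factor (chr17:44564849-44565249, gene body), held 1 count over the 3 naive KO libraries and 10.9, 12.2 and 12.5 CPM in activated KO. Its scaled ratio was 770, with a counting interval of 138 to 30500. The lowest activated KO library stood above every naive one, a separation that the choice of these sites required. Other gains among the largest lay in or near Dlg2, Scel, Cald1, Dpy19l3, Dmxl2 and Prkg1, with 1 to 7 naive KO counts a site. Their ratios were 466 to 859, with lower counting bounds of 124 to 162 where the naive count was 1 or 2. None of these 7 sites passed the test of a difference between KO and WT in response (adjusted p 0.214 to 0.763). With so few naive counts the SE of that difference was 0.72 to 1.39, so only a large difference could pass. The activated level was higher in KO than in WT at Dlg2 (0.73, adjusted p 0.000252), Scel (0.64, 0.001) and Dmxl2 (0.39, 0.0217). It was not called different at the other sites.

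The strongest losses left sites close to empty. In Rsu1, which encodes a regulator of cell adhesion (chr2:13224606-13225006), naive KO libraries held 64.8, 60.1 and 69.6 CPM and activated ones 0.871, 0.485 and 0.559, a log2 difference of -6.65 ± 0.16 (SE, adjusted p 8.34e-19). In Wwox, a gene of a large fragile site (chr8:114869224-114869624), the values went from 22.8, 24.3 and 22.7 to 0.0917, 0.339 and 0.14 CPM, a difference of -6.91 ± 0.19 (adjusted p 4.01e-20). Naive and activated libraries did not overlap at either site, which the choice of these sites required. The other 6 largest losses, in or near Vmn1r1, Ncbp1, Pigl, Gtf3c3, Mctp2 and Slc4a4, had log2 differences of -7.38 to -6.69. None of these 8 passed the test of a difference from WT in response (adjusted p 0.0809 to 0.789). With few activated counts the SE of that difference was 0.34 to 0.59. The activated level was lower in KO than in WT at Slc4a4 (-0.96, adjusted p 0.0372) and not called different at the other sites.

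Sites at gene starts changed less than sites elsewhere: the 10170 sites at gene starts had a median KO difference of -0.03, with 15.5% stably opened and 23.5% stably closed, and 24.5% of them passed the test with a log2 difference of 1 or more. The 67270 tested sites in gene bodies had a median of 1.14, with 29.4% stably opened and 26.6% stably closed. The 33357 tested sites between genes had a median of 1.55, with 31.7% and 23.0%. Gene starts held 40.2%, 40.2% and 39.0% of the counts of naive KO libraries and 35.7%, 36.3% and 35.9% of activated ones. The 10000 strongest sites held 59.7% ± 1.10 (SD, n = 3) in naive and 49.2% ± 0.288 in activated KO. Naive and activated libraries did not overlap in either share (exact permutation test, two-sided, p = 0.1, the smallest that 3 against 3 allows).

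Around genes of the naive and quiescent state, closing outweighed opening in KO. Of 561 sites within 10 kb of 21 such genes (of 22 listed), 278 (49.6%) closed and 133 (23.7%) opened stably. The shares over all sites were 25.3% closed and 28.8% opened. The median of the 561 sites was -0.38 against 1.04 for all sites. The start site of Klf2 held 164, 158 and 151 CPM in naive KO and 67.9, 66.8 and 67.3 in activated KO. All naive libraries were above all activated ones, with a log2 difference of -1.23 ± 0.04 (adjusted p 4.78e-19). The start site of Satb1 went from 68.4, 70.6 and 72.9 to 15.3, 15.6 and 15.2 CPM (-2.20 ± 0.06, adjusted p 3.86e-20), and 24 of the 32 sites of this gene closed stably while none opened. At Tcf7 the strongest site (chr11:52268444-52268844, gene body) fell from 77.7, 76.1 and 79.6 to 16.7, 14.2 and 16.0 CPM (-2.31 ± 0.07, adjusted p 9.36e-20), and 11 of 16 sites closed stably. Lef1, the partner of TCF-1, lost 29 of 44 sites and gained 2. A site in its body (chr3:131157413-131157813), chosen for its smallest p, went from 120, 106 and 112 to 7.48, 8.78 and 7.82 CPM. S1pr1, the receptor that lets T cells leave lymph nodes, lost all of its 6 sites, and the strongest went from 70.8 to 76.2 CPM in naive to 22.8 to 23.9 CPM in activated KO. Upstream of Il7r, the receptor for the survival cytokine IL-7 (chr15:9533342-9533742), the level went from 72.1, 62.3 and 70.5 to 6.47, 8.24 and 7.35 CPM (-3.22 ± 0.08, adjusted p 7.37e-21). The list was not uniform: Foxp1, which keeps naive cells quiescent, had 46 of 138 sites stably opened and 49 closed, and Bach2, a repressor of effector genes, 34 opened and 35 closed of 99.

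Around genes of T cell activation, opening outweighed closing. Of 239 sites near 22 genes, 113 (47.3%) opened and 62 (25.9%) closed stably, beside 28.8% and 25.3% of all sites, and the median of 1.13 was close to the 1.04 of all sites. Il2 encodes the growth factor of activated T cells, and all of its 4 sites opened stably. The strongest (chr3:37128267-37128667, upstream of the start) rose from 0.925, 0.967 and 0.964 to 38.9, 37.9 and 36.6 CPM, a log2 difference of 5.30 ± 0.11 (adjusted p 4.37e-22). Il2ra, the high-affinity chain of its receptor, gained 8 and lost 5 of 17 sites. A site in its body (chr2:11691086-11691486) chosen for its smallest p rose from 0.103, 0.0921 and 0.251 to 51.7, 44.7 and 42.9 CPM, while the strongest site of the gene closed, from 56.6 to 73.6 down to 43.2 to 49.3 CPM. The start site of Tnfrsf4 rose from a mean of 11.3 to 34.0 CPM. Pdcd1, which encodes the inhibitory receptor PD-1, gained 6 of 8 sites stably and lost none. Irf4, a transcription factor of effector cells, gained 6 and lost 2 of 10, and its start site rose from a mean of 9.31 to 29.3 CPM. Cd40lg, which encodes the ligand through which T cells help B cells, had 4 of 8 sites closed stably and none opened.

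Around genes of the Th1 fate and the IL-12 response, 73 of 174 sites (42.0%) opened and 37 (21.3%) closed stably, beside 28.8% and 25.3% of all sites, with a median of 1.64 beside 1.04. Tbx21 gained 9 of 12 sites and lost none. Its start site rose from 6.22, 6.21 and 5.66 to 24.2, 23.3 and 23.6 CPM (1.98 ± 0.09, adjusted p 1.40e-15). A site in its body (chr11:97112579-97112979) went from 0.154, 0.138 and 0.126 to 31.0, 29.1 and 28.1 CPM (7.67 ± 0.17, adjusted p 1.59e-21). No naive library overlapped an activated one at these 2 sites, of which the body site was chosen for its smallest p. The strongest site of Bhlhe40, a factor of cytokine production (chr6:108660180-108660580), rose from 8.33 to 8.53 CPM to 94.9 to 98.3 CPM. The strongest site of Ifng, the Th1 cytokine interferon gamma (chr10:118442944-118443344), rose from 0.257, 0.414 and 0.838 to 6.65, 6.35 and 6.52 CPM. Ccl3 and Ccl4, neighbouring chemokine genes that share sites, had all of their 5 and 7 sites stably opened. The list held losses too. All 4 sites of Prf1, which encodes the pore protein perforin, and 7 of 8 sites of Il18r1, part of the receptor for IL-18, closed stably.

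Il12rb2, which makes T cells responsive to IL-12, had 5 of its 16 sites closed and 3 opened stably in KO. The start site, whose promoter is printed above, had a mean of 8.24 CPM in naive and 9.65 CPM in activated KO and did not pass the test (adjusted p 0.103). In WT the same site went from a mean of 9.61 to 18.4 CPM, and the response was lower in KO than in WT by a log2 difference of -0.71 (adjusted p 0.0152). At Stat4, the transducer of the IL-12 signal, 9 of 23 sites opened and 5 closed stably in KO. A body site (chr1:52066325-52066725) rose from 0.205, 0.0921 and 0.335 to 35.9, 37.9 and 35.7 CPM, with a log2 difference of 7.37 in KO and 7.39 in WT. Jak2, a kinase of the IL-12 receptor, gained 11 of 21 sites and lost 1.

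**Figure D1:**
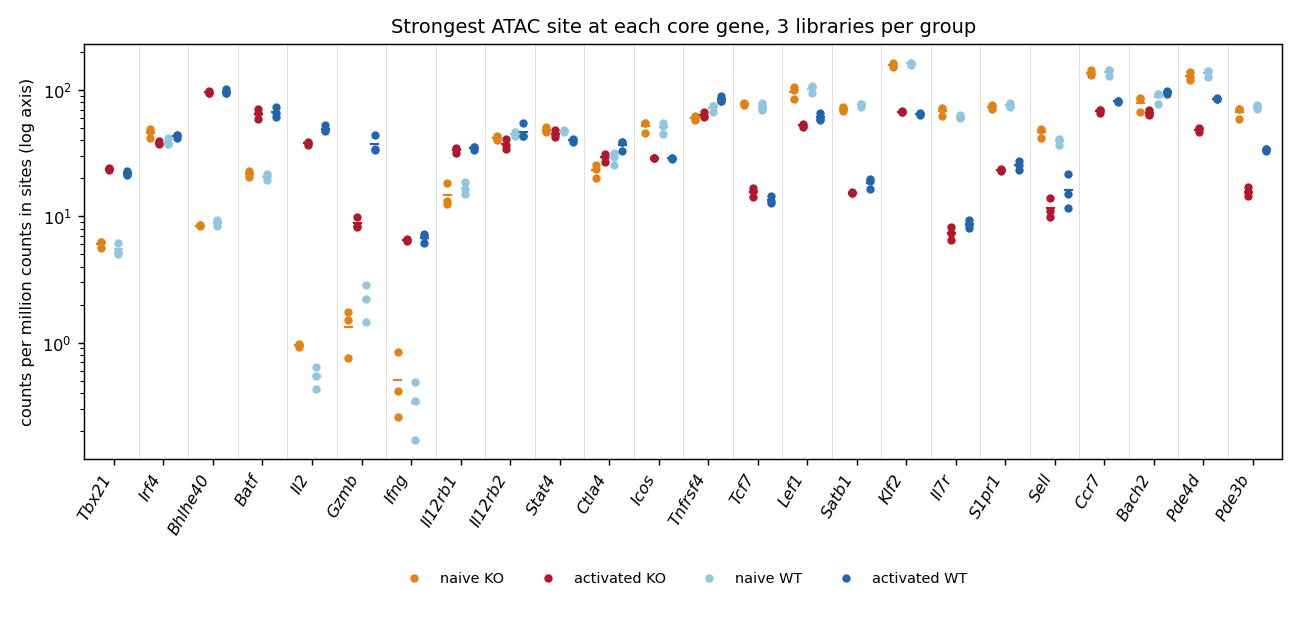
Accessibility at the strongest site of each core gene, in CPM on a log axis. Points are single libraries (3 a group), short lines are group means, and colours mark naive and activated KO and WT. Klf2 sits at 151 to 164 CPM in naive KO and 66.8 to 67.9 in activated KO, and Gzmb at 8.29 to 9.91 CPM in activated KO against 33.2 to 44.0 in activated WT.

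Among the AP-1 and BATF family, whose members bind the TGANTCA motif, 34 of 92 sites (37.0%) opened and 18 (19.6%) closed stably. The shares over all sites were 28.8% and 25.3%. The median of the 92 sites was 0.74 beside 1.04 for all sites. Batf3 gained all of its 7 sites. Batf, which pairs with IRF4, moved in both directions: its start site closed from 60.2, 52.4 and 56.1 to 20.3, 18.7 and 20.5 CPM, while its strongest site (chr12:85705493-85705893, gene body) opened from 20.5, 22.9 and 21.9 to 70.6, 59.0 and 65.6 CPM. Among 20 genes of cyclic AMP signalling and CREB targets, 61 of 236 sites (25.8%) opened and 71 (30.1%) closed stably, near the 28.8% and 25.3% of all sites, with a median of 0.58. Pde4d, a phosphodiesterase that degrades cyclic AMP, had 19 of 64 sites closed and 8 opened, and its strongest site (chr13:109822409-109822809) went from 139, 121 and 126 to 49.8, 49.0 and 46.3 CPM. All 3 sites of Rgs2, an inhibitor of G protein signalling, closed, and 4 of the 5 sites of Ptger2, a receptor for prostaglandin E2 that raises cyclic AMP, opened. Of 78 sites near PKA subunits and inhibitors, 21 (26.9%) opened and 24 (30.8%) closed stably, also near the shares of all sites. The start site of Prkaca closed in KO from 122, 126 and 116 to 87.4, 96.5 and 90.1 CPM.

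Among the other groups, homing and chemokine receptors had 28 of 118 sites stably opened (23.7%) and 47 closed (39.8%), beside 28.8% and 25.3% of all sites. Itga4, an integrin chain, lost 6 of 10. Cell cycle genes had 36 opened (26.3%) and 29 closed (21.2%) of 137, near the shares of all sites. Glycolysis genes had 44 opened (36.4%) and 22 closed (18.2%) of 121. Genes of other T helper lineages had 48 opened (30.0%) and 48 closed (30.0%) of 160, also near the shares of all sites. Among these, Foxp3, the factor of regulatory T cells, lost 5 of 8 sites and gained none, and Il10, a regulatory cytokine gene, gained 5 of 6 and lost none.

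Set against WT, the KO response had the same shape and nearly the same number of sites. In WT 66656 sites (60.2%) opened and 32401 (29.2%) closed, and 56596 (51.1%) and 20021 (18.1%) with a log2 difference of at least 1. Stably, 32936 (29.7%) opened and 28393 (25.6%) closed. Both genotypes opened 64091 sites, which is 95.4% of the KO list and 96.2% of the WT list, and both closed 29461, or 94.4% and 90.9%. Across the 110797 sites the 2 responses had a Pearson correlation of 0.959 and a Spearman correlation of 0.970, and 95.6% had the same sign. These are descriptions across sites, which are not replicates, and the 2 responses share no library. The opposite move was rare: 218 sites closed in KO and opened in WT, and 76 did the reverse.

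**Figure D2:**
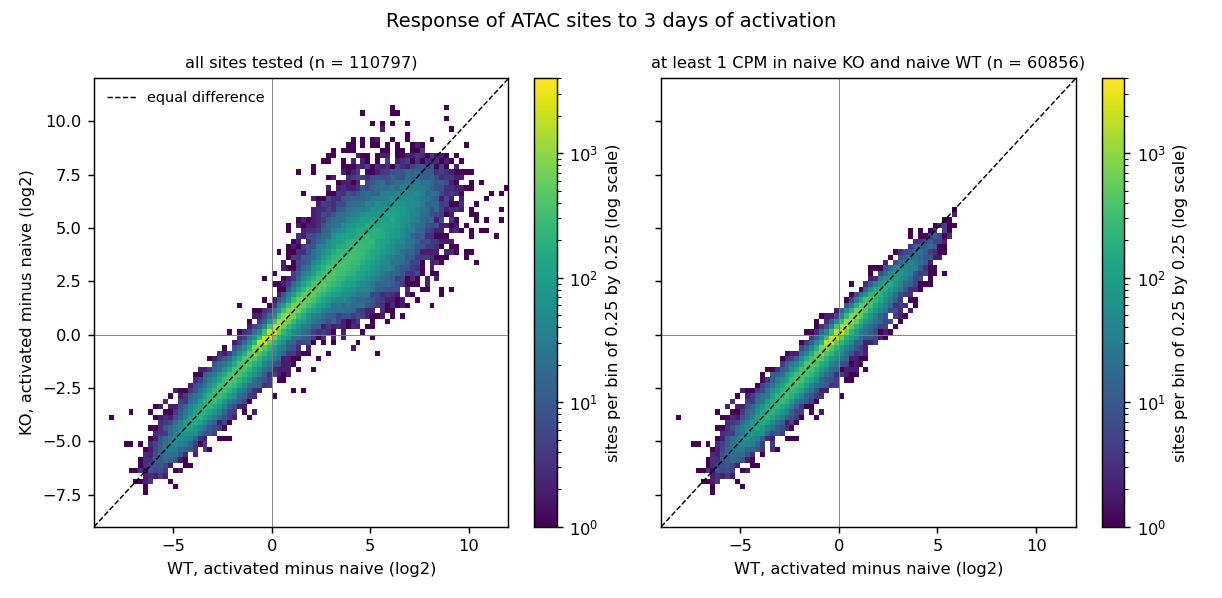
Log2 difference between activated and naive cells in WT (horizontal) and KO (vertical) for the tested sites, with shading for the number of sites in each square (log scale), over all tested sites (left) and those with at least 1 CPM in both naive groups (right). Both clouds follow the dashed line of equal difference, 95.6% of all sites have the same sign in KO and WT, and the spread is wider among sites that open in the left panel.

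The amplitude of the KO response was smaller over all sites, and not over sites that were well covered in naive cells. The 5th and 95th percentiles were -3.19 and 5.48 in KO and -3.14 and 6.07 in WT, the SD across sites was 2.61 against 2.80, and the slope of KO on WT (major axis) was 0.929. Among the 60856 sites with at least 1 CPM in naive cells of both genotypes, the slope was 0.997 and the SDs 1.74 and 1.75 (slope 0.972 with loess scaling). At stricter minimums it passed 1, with 1.015 at 2 CPM (48396 sites) and 1.038 at 5 CPM (32440 sites, SDs 1.62 and 1.56). Naive KO libraries had 4121, 2143 and 1900 sites at 0 counts and naive WT libraries 7583, 7006 and 1198, so replicate 3 of naive WT stood apart from the other 2. Without it the slope was 0.825 over all sites. Leaving out any single library gave 0.825 to 0.952 over all sites and 0.988 to 1.007 over sites with at least 1 CPM. At such well covered sites a deficit in KO remained in the stronger gains. Relative to the median site, the KO minus WT difference in response had a median of -0.14 for sites that opened by 1 to 2 beyond the median (2072 sites), -0.30 for 2 to 3 (660 sites), -0.34 for 3 to 4 (157 sites) and -0.36 above 4 (19 sites). For sites that closed by 2 or more below the median it lay between -0.03 and 0.01. The bins in between were higher, at 0.17 for -2 to -1 (17438 sites) and 0.12 for -1 to 0 (14361 sites). The median site was taken over all tested sites, and the position of 0 depends on that choice. Set against these middle bins, the bins that closed most also lay lower in KO. No library-level test of these medians was made.

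**Figure D3:**
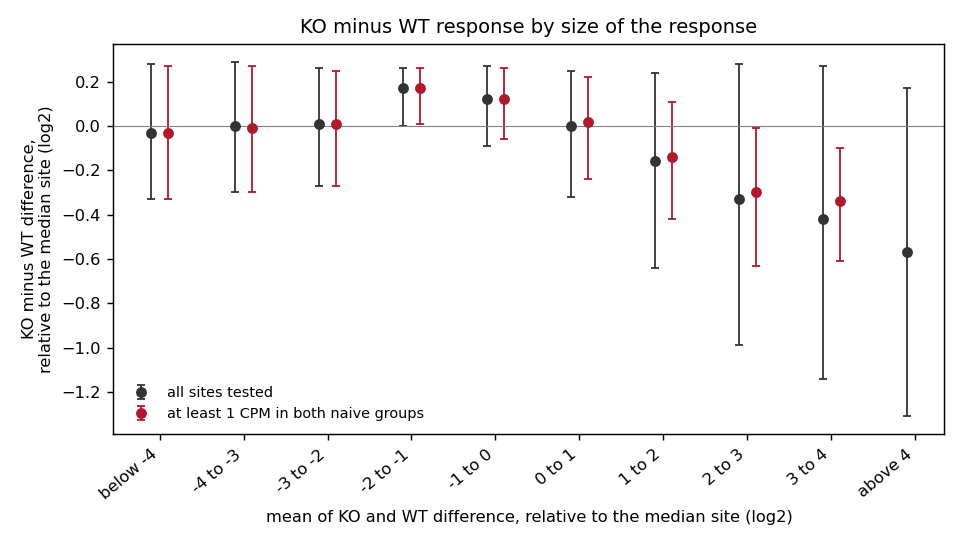
KO minus WT difference in response, relative to the median site (log2), by the size of the response averaged over KO and WT. Points are medians and bars the middle 50% of sites, for all tested sites and for those with at least 1 CPM in both naive groups. The bins that close most lie near 0 and those that open most fall to -0.57 over all sites (above 4) and -0.34 over well covered ones (3 to 4, the last bin drawn for them). The bins -2 to -1 and -1 to 0 lie at 0.17 and 0.12 in both sets.

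Library shares gave the same order. Activated KO libraries kept 35.7% to 36.3% of their counts at gene starts and activated WT libraries 33.2% to 33.6%, and the 10000 strongest sites kept 49.0% to 49.6% and 46.3% to 46.4%. KO and WT did not overlap after activation in either share (exact permutation test, two-sided, p = 0.1, the smallest possible). In naive cells the gene start share was 39.0% to 40.2% in KO and 40.4% to 40.6% in WT, again without overlap, and the share of the 10000 strongest overlapped between genotypes (exact permutation test, two-sided, p = 0.4).

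Tested site by site, the KO minus WT difference in response was negative at more sites than it was positive. A negative value means that KO opened less or closed more than WT. This interaction term was lower in KO at 5705 sites (5.15%) and higher at 2132 (1.92%), by edgeR's quasi-likelihood test at an adjusted p under 0.05. With a log2 difference of at least 1 the counts were 3462 (3.12%) and 171 (0.154%), and stably over the 5 scalings 3706 (3.34%) and 449 (0.405%). The excess of lower sites depended on the scaling, and with upper quartile factors 4201 were lower and 3605 higher. The counts moved with single libraries: without replicate 3 of naive KO 3500 were lower, and without replicate 2 or 3 of activated KO or replicate 3 of naive KO 1011, 1073 and 1087 were higher. Without replicate 1 of naive WT, or replicate 1 or 2 of activated WT, 1326, 1400 and 1371 were higher. Without replicate 1 of every group, an alternative added after the data were seen, 3514 were lower and 916 higher. The genotypes were close in naive cells, where 957 sites (0.864%) were higher and 780 (0.704%) lower in KO. They were further apart after activation, where 15254 (13.8%) were higher and 18917 (17.1%) lower. Calls within a state were made with library size scaling only, and how far they move with other scalings was not tested. Of the 3706 stably lower sites, 3446 (93.0%) were lower in activated KO than in activated WT, and 247 were higher in naive KO than in naive WT. Both differences enter the interaction by which these sites were chosen, so the counts are not a separate test. The median log2 response of the 3706 sites was 0.96 in KO and 2.28 in WT. Of these sites, 2153 opened in both genotypes, 784 closed in both, 357 were not called in KO and opened in WT, and 197 closed in KO and opened in WT.

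At the 8 lower sites with the smallest p-values KO closed each time, while WT closed less at 5, opened at Mlec and Ccr7, and had a log2 difference of -0.01 at Lrrc8d. In Lrrc8d, a subunit of volume-regulated anion channels (chr5:105718145-105718545), KO went from 21.5, 22.5 and 21.9 to 3.62, 3.78 and 4.24 CPM. WT went from 29.4, 30.8 and 24.5 to 31.0, 27 and 26.3 CPM, an interaction of -2.49 ± 0.14 (adjusted p 1.77e-10). Only the KO groups were separated by activation here. Near Trim25, a ubiquitin ligase of antiviral sensing (chr11:89024101-89024501), KO went from 27.5, 31.5 and 29.3 to 2.52, 2.52 and 2.75 CPM and WT from 49.0 to 51.2 CPM down to 23.4 to 30.2 CPM (-2.55 ± 0.14, adjusted p 1.77e-10). In Prkch, a protein kinase C isoform of lymphocytes (chr12:73715865-73716265), KO ended at 8.05 to 9.46 CPM and WT at 33.8 to 42.2 CPM. In Mlec, which encodes a lectin of the endoplasmic reticulum (chr5:115152347-115152747), KO closed from 8.84, 10.5 and 9.01 to 3.21, 2.67 and 2.89 CPM while WT opened from 8.59 to 9.50 up to 12.4 to 14.5 CPM. Plcxd2, Ttc28 and Rab3ip completed the 8, with interactions of -2.69, -1.50 and -1.15. The calls at these 8 sites held in each fit that left out 1 of the 12 libraries.

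Ccr7, the chemokine receptor that brings naive T cells into lymph nodes, was among these 8. Of its 8 sites, 5 responded stably lower in KO and 1 higher. At chr11:99143802-99144202 KO closed from 23.9, 24.2 and 27.3 to 12.1, 11.4 and 12.8 CPM, and WT opened from 22.0, 24.5 and 24 to 29.1, 30.9 and 32.0 CPM (-1.44 ± 0.11, adjusted p 1.47e-08). At chr11:99160706-99161106 both opened, KO from 0.719, 1.15 and 0.796 to 26.6, 26.7 and 24.7 CPM and WT to 62.3, 58.2 and 60.1 CPM (-1.59 ± 0.24, adjusted p 0.000194). At both sites activated KO lay below activated WT in all libraries. The choice of the first site required KO and WT to separate in the activated or the naive state. Naive libraries overlapped at the first site, and at the second naive KO lay above naive WT (0.671 to 0.702 CPM).

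The 8 largest negative interactions by size lay at sites with 0 to 3 counts over the 3 naive WT libraries, and with 0 at 5 of them. A site in Csdc2, which encodes an RNA-binding cold shock protein (chr15:81943332-81943732), held 0.103, 0.184 and 0.21 CPM in naive KO and 4.04, 4.07 and 4.05 in activated KO, a ratio of 24. In WT it held 0 counts in all naive libraries and 13.0 to 15.3 CPM after activation, which is at least 314-fold higher, taking 3 counts for the whole group as the floor. Near Dusp10, a phosphatase of MAP kinases (chr1:184084924-184085324), activated KO reached 1.28, 1.07 and 0.884 CPM and activated WT 22.6, 14.6 and 15.6, with 0.0921 to 0.126 CPM in naive KO and 0, 0.0839 and 0.054 in naive WT. These differences rest on activated levels as well as on very few naive counts. For sites in Atg13 and Tnrc6a, activated KO (15.1 to 16.8 and 11 to 12.9 CPM) overlapped activated WT (15.9 to 18.3 and 9.27 to 13.3), and the naive counts over the group were 16 and 25 in KO and 0 in WT.

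The sites with a higher response in KO were fewer and smaller in effect, with a median of 0.27 against -1.21 at the lower sites. In Anxa4, a membrane-binding annexin (chr6:86777692-86778092), KO opened from 1.70, 1.84 and 1.76 to 13.1, 12.6 and 12.9 CPM and WT to 4.27, 3.04 and 3.55 (1.28 ± 0.25, adjusted p 0.00288). In Tspan3, a tetraspanin (chr9:56146257-56146657), both genotypes closed and KO less so, from 15.0, 16.1 and 16.8 to 5.27, 4.36 and 4.42 CPM against 1.42 to 2.12 CPM in activated WT (1.29 ± 0.19, adjusted p 0.00015). Activated KO libraries lay above activated WT ones at both sites. The choice of these sites required KO and WT to separate in the activated or the naive state. Of the 449 stably higher sites, 393 (87.5%) were higher in activated KO than in activated WT. That difference enters the interaction by which these sites were chosen, so the count is not a separate test.

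Among the gene groups, lower KO responses were counted most often around cyclic AMP and CREB genes (25 of 236 sites stably lower, 10.6%, none higher), Th1 and IL-12 genes (16 of 174, 9.20%, and 1 higher), naive genes (50 of 561, 8.91%, and 5 higher) and activation genes (21 of 239, 8.79%, and 1 higher), beside 3.34% of all sites. AP-1 and BATF genes had none of 92 lower, cell cycle genes 2 of 137 and glycolysis genes 3 of 121. These are counts of sites, many of which share a gene, and no test of the lists was made. The lists were chosen with earlier results of these data known, so a high share may come from that choice. Within the cyclic AMP group, 9 of 64 sites of Pde4d and 5 of 44 of Pde4b, both phosphodiesterases, were stably lower, and at the strongest site of Pde4d activated KO lay at 46.3 to 49.8 CPM and activated WT at 84.2 to 86.4 (-0.74 ± 0.07, adjusted p 5.78e-07). Pde3b, also a phosphodiesterase, ended at 14.4, 17.1 and 15.5 CPM in KO and 33.1 to 34.3 in WT at its strongest site (chr7:114479762-114480162; -0.97 ± 0.09, adjusted p 6.87e-07). The start site of Gzmb rose from 1.75, 1.52 and 0.754 to 9.91, 8.29 and 8.42 CPM in KO and to 44.0, 34.4 and 33.2 in WT (-1.32 ± 0.33, adjusted p 0.023). That call was lost without replicate 1 or 2 of naive KO (adjusted p 0.0981 and 0.0987) or replicate 2 of naive WT (0.0573). It was also lost with limma-voom (adjusted p 0.195). The strongest Il2 site rose to 36.6 to 38.9 CPM in KO and 47.0 to 52.8 in WT (-1.18 ± 0.24, adjusted p 0.00421). Its naive means were 0.952 CPM in KO and 0.541 in WT. The log2 difference between KO and WT was -0.38 in activated cells and 0.79 in naive cells, where it did not pass the test (adjusted p 0.182). With limma-voom the Il2 interaction did not pass (adjusted p 0.0813). The start site of Tnfrsf4 also rose less in KO (-0.52, adjusted p 0.00315). Satb1 had 7 of 32 sites stably lower and Tgfbr2, a receptor of TGF-beta, 5 of 29. The start site of Tbx21 showed an interaction of -0.01 ± 0.13 and that of Klf2 of 0.11 ± 0.05, neither past the test (adjusted p 0.988 and 0.253).

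**Figure D4:**
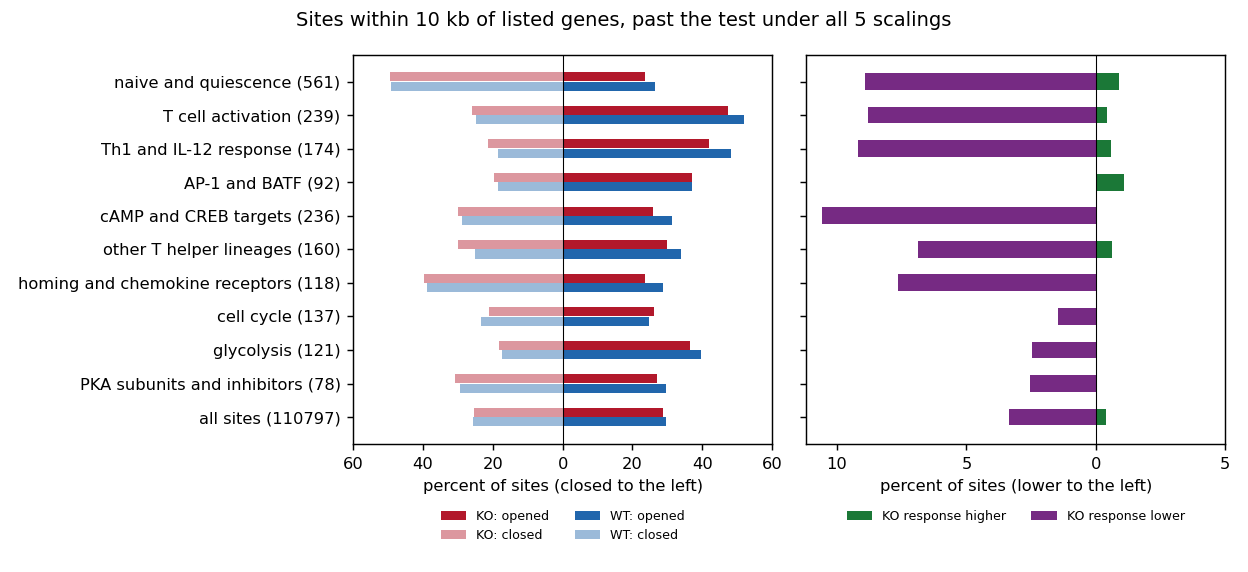
Percent of the sites within 10 kb of each gene group that opened or closed stably in KO and WT (left, closed to the left of 0) and whose response was stably higher or lower in KO than in WT (right), with the number of sites in brackets. Cyclic AMP and CREB genes reach 10.6% lower, and AP-1 and BATF genes 0%.

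The promoters of the affected sites differed in base composition and in short motifs. Windows of 250 bases before to 50 after each RefSeq start were searched on both strands for AP-1 (TGANTCA), CRE (TGACGTCA), a CRE-like word (TGACGCA), TCF/LEF (ATCAAAG), RUNX (TGTGGTT), ETS (CCGGAAG), KLF/SP (CCCGCCC), KLF (CCACACC), T-box (AGGTGTGA), NFAT (TGGAAAA), NF-kB (GGGANTTCC), STAT (TTCCNNGAA), IRF (GAAA, any base, then TGAAA) and the CTCF core (AGGGGGC). No motif contains another, and a match describes letters, not binding. Of all 32851 windows 7.81% held AP-1, 5.27% RUNX and 1.79% CRE, and of the 12464 with a counted site 5.70%, 4.14% and 3.43%. The other motifs were held by 25.6% of all windows for KLF/SP, 10.6% for the CTCF core, 8.86% for ETS, 7.58% for KLF, 6.73% for NFAT, 4.81% for STAT and 3.73% for TCF/LEF. The CRE-like word was held by 2.12%, NF-kB by 1.68%, T-box by 1.28% and IRF by 0.791%. Windows whose site opened by at least 1 in KO (1601) held AP-1 in 11.8% and those that closed by at least 1 (516) held RUNX in 11.4%. The 102 windows with a stably lower KO response held AP-1 in 33.3% and RUNX in 20.6%, with a median GC content of 49.7% against 61.3% for windows with a site. Among windows of 40% to 55% GC, AP-1 was held by 33.3% of the 69 with a lower response and by 11.3% of all 3118, and RUNX by 24.6% and 7.70%. The 76 windows with a stably higher response held CRE in 17.1%, ETS in 31.6% and AP-1 in 1.32%. Of the windows with a site, 17.8% held ETS. No test was made of these shares. In the Gzmb promoter printed above, an AP-1 word TGAGTCA begins 58 bases and a RUNX word TGTGGTT 34 bases before the start. The capitals in the Tbx21 and Klf2 runs are KLF/SP words, with a CTCF core in Tbx21, that in Satb1 is a CTCF core, and those in Tcf7 are ETS, KLF/SP and KLF words. The Tnfrsf4 and Il12rb2 runs hold no match to the motifs searched.

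RNA gave a second readout of the KO response. Of 11980 genes tested, 5065 (42.3%) rose and 4772 (39.8%) fell in KO on activation, by edgeR's quasi-likelihood test with TMM factors. RNA and start sites moved together on the whole: genes whose start site opened by more than 1 beyond the median site (234 genes) had a median RNA log2 difference of 4.68, and those whose site fell by more than 2 below it (210 genes) of -1.83. The Pearson correlation across 7794 genes was 0.54, a description across genes, which are not replicates. Tbx21 RNA rose from 0.312 to 0.566 CPM to 134 to 146 CPM, Klf2 RNA fell from 556 to 685 CPM to 4.10 to 7.88 CPM, and Tcf7 RNA fell from a mean of 2030 to 357 CPM. Other genes parted from their sites. Batf RNA rose from 36.8, 38.3 and 35.5 to 55, 64.6 and 66.2 CPM (0.62, adjusted p 5.89e-05), although its start site closed. Mki67, a marker of dividing cells, rose from 6.91 to 683 CPM, and its start site, at 41.4 to 44.8 CPM in naive and 46.9 to 49.6 CPM in activated KO, passed the test as higher with library size (0.16) and as lower with TMM, RLE or DESeq2 (-0.44, -0.38 and -0.38).

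**Figure D5:**
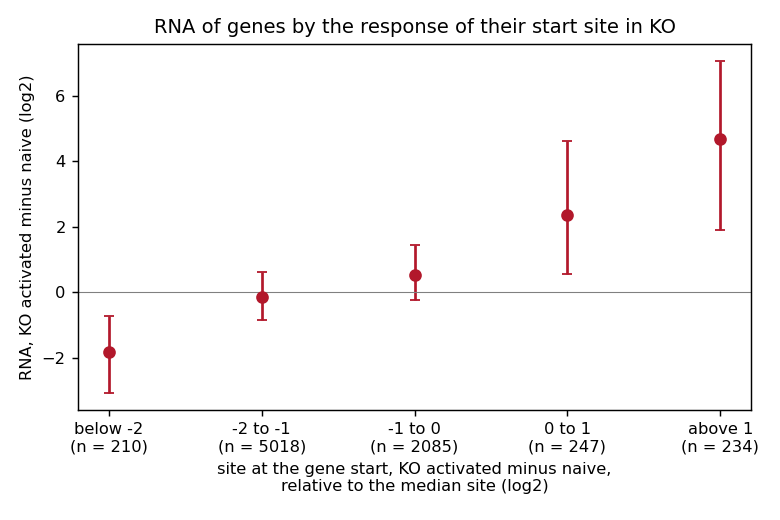
RNA log2 difference between activated and naive KO cells for genes grouped by the change of their start site, relative to the median site. Points are medians and bars the middle 50% of genes, from -1.83 in the group that closed most (210 genes) to 4.68 in the group that opened most (234 genes).

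In RNA the KO minus WT difference in response was lower at 302 genes (2.52%) and higher at 141 (1.18%), and its median over the 11567 genes with a site was 0.01. Without replicate 2 of activated KO 212 were lower and 78 higher, without its replicate 3 86 were higher, and without replicate 1 of every group 72 were higher. Genes with more stably lower sites had a lower RNA response more often: 8.88% of the 1700 genes with at least 1 lower site and no higher one, 20.6% of the 170 with at least 3, and 2.58% of the 11567 genes with a site. Ccr7 RNA fell from 704, 670 and 697 to 256, 239 and 244 CPM in KO and went from a mean of 687 to 1400 CPM in WT (interaction -2.51 ± 0.10, adjusted p 1.08e-10). Satb1 RNA fell from 942, 789 and 884 to 70.3, 54.6 and 61.2 CPM in KO and to a mean of 317 CPM in WT (-2.16 ± 0.12, adjusted p 4.62e-09). Both genes were lower in every activated KO library than in any activated WT library. Stat4 RNA fell from 106, 95.4 and 103 to 51.2, 47.1 and 52.8 CPM in KO and went from a mean of 113 to 263 CPM in WT (-2.23 ± 0.11, adjusted p 1.49e-09), with 2 of 23 sites stably lower and 1 higher. Il12rb2 RNA reached 5.77, 5.41 and 5.54 CPM in activated KO and 115, 61.9 and 65.2 in activated WT (-3.38, adjusted p 0.0177, a call held in 7 of 12 fits that left out 1 library). Gzmb RNA was at 0 in the naive KO libraries, at 11.3, 5.60 and 5.25 CPM in activated KO and at 306 to 1040 CPM in activated WT. Its RNA interaction did not pass the test, and naive WT held at most 0.106 CPM. Pde4d RNA ended at 5.99 to 6.81 CPM in activated KO and 66.5 to 70.8 CPM in activated WT (-2.46 ± 0.22, adjusted p 1.45e-05). Ramp3, a receptor accessory protein counted with the cyclic AMP group, fell from a mean of 12.9 to 0.353 CPM in KO and stood at 14.7 and 34.7 CPM in naive and activated WT, with none of its 6 sites stably different in response. Il18r1 went the other way in RNA (1.61, adjusted p 2.12e-05) and fell from 82.2 to 20.7 CPM in KO and from 93.6 to 7.70 CPM in WT. Tcf7 was also higher (0.43, adjusted p 0.0292), a call held in 5 of 12 such fits (adjusted p up to 0.114) and lost without replicate 1 of every group (0.0571).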

How the data were processed

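ATAC-seq counts per site and RNA-seq counts per gene were the values used. The authors deposited whole-number counts for the naive and activated libraries of both genotypes, with the naive and activated ATAC libraries in 2 tables that were joined by chromosome, start and end. The authors also deposited log2 fold changes and p-values in these tables, per the file headers, which were not used. Coordinates are mm10, per the submitters' processing notes. The aligner, the counting tool and the site caller are not given in the sources used here. Counts at RNA features without a symbol (0.128% to 0.159%) were left out.

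All 12 ATAC libraries entered 1 fit with a mean per group in edgeR 4.0.16 (R 4.3.3), using its quasi-likelihood test on counts scaled to library size, filterByExpr, and Benjamini-Hochberg adjustment over the 110797 sites kept (11 were left out). RNA was fitted likewise with TMM factors. The KO contrast was tested on simulated counts in which a small share of sites changed, equally up and down. Most sites changed in these data, so that check does not bear on the scaling. The interaction was not checked in it. Sites were assigned to genes within 10 kb, from RefSeq. limma 3.58.1 and DESeq2 1.42.0 served as alternatives. A floor of 3 counts equals 0.118 to 0.162 CPM in an ATAC library, and intervals cover counting error only. Named sites are the 8 largest called differences per direction whose groups did not overlap and whose higher group reached 10 CPM, 1 per gene, the 8 smallest interaction p-values among lower sites, and for each core gene the site with the highest mean and that with the smallest p. The members and lists were chosen with earlier results of these data known. The forskolin libraries were not used, and motifs were searched in RefSeq promoter windows, not in all sites, for want of a genome. One named site is not reported here.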

Additional observations from a re-analysis of the deposited data

Results flagged for a closer look

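The activation response differed between KO and WT, by the interaction term of edgeR's quasi-likelihood test, at 2132 sites that were higher and 5705 that were lower in KO, and at 141 and 302 genes in RNA. Each value below is the KO minus WT log2 response at a named site, listed because its adjusted p was under 0.05.

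Among the higher responses the values were 1.65 at Sppl3, 1.5 at Adpgk, 1.45 at Pkhd1l1, 1.39 at Zfand6, 1.29 at Tspan3, 1.28 at Anxa4, 1.24 at St8sia4 and 1.23 at Plekhh2. The Adpgk call was lost in 4 of the 12 fits that left out 1 library (replicates 2 and 3 of naive KO, 1 and 2 of naive WT, adjusted p up to 0.0835). It was also lost with limma-voom (adjusted p 0.0874). Among the lower responses, sites with few or no naive WT counts had fitted values of -6.77 at Csdc2, -6.25 at Tmem9, -5.99 at Tnrc6a, -5.59 at Dph1, -5.59 at Atg13, -5.16 at Dusp10, -4.87 at Crybb1 and -4.79 at Slc25a12, which depend on the prior count. The Dph1 call was lost without replicate 2 of naive KO (adjusted p 0.0741). With limma-voom the calls at Dph1 (adjusted p 0.123), Dusp10 (0.123) and Slc25a12 (0.0781) were lost. The smallest p-values gave -2.49 at Lrrc8d, -2.55 at Trim25, -1.86 at Prkch, -2.69 at Plcxd2, -1.5 at Ttc28, -2.27 at Mlec, -1.44 at Ccr7 and -1.15 at Rab3ip.

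Core genes gave -1.32 at the Gzmb start, -1.18 upstream of Il2, -1.59 at the opening Ccr7 site, -0.74 at Pde4d, -0.97 at Pde3b, -0.42 at Irf4 and -1.09 in the body of Satb1. The Satb1 call was lost without replicate 1 of activated KO (adjusted p 0.108) or replicate 2 of activated WT. It was also lost without replicate 1 of every group (adjusted p 0.201). With limma-voom the calls at Satb1 (adjusted p 0.118), Gzmb (0.195) and Il2 (0.0813) were lost. The Irf4 call was lost with upper quartile factors (adjusted p 0.0748). Less steady were -0.69 in Il12rb2 (lost in 8 of 12 such fits), -0.38 upstream of Il7r (9 of 12), 0.19 near Nr4a1 (8 of 12), -0.23 at the strongest Ccr7 site (4 of 12) and 0.41 in Tcf7 (3 of 12). The value of 0.33 at the Cd4 site was held in all 12 and lost under other scalings.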

How the results depend on the processing

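The KO counts of 67187 opened and 31196 closed sites lay between 65599 and 67457 and between 30156 and 31367 when 1 library was left out, and WT between 65457 and 66721 and between 31266 and 32453. Loess scaling gave 41121 opened sites in KO and 40921 in WT. A log2 difference of at least 1 left 20492 closed in KO and 20021 in WT. TMM gave 55076 and 43008 in KO, and 56986 and 42671 in WT. Sites with a higher response in KO, 2132 at first, numbered 433 at an adjusted p under 0.01, 171 with a log2 difference of at least 1, 544 with TMM, 513 with RLE, 3605 with upper quartile, 836 with loess, 582 with DESeq2 and 1011 to 2349 with 1 library left out. Sites with a lower response, 5705 at first, numbered 2464 at an adjusted p under 0.01 and 3462 with a difference of at least 1. They numbered 5661 with TMM, 4622 with RLE, 4201 with upper quartile, 4671 with loess and 4887 with DESeq2. With limma-voom 3339 were lower and 2307 higher. Leaving out 1 library gave 3500 to 7134 lower sites. Without replicate 1 of every group, added after the data were seen like every RNA alternative and a fit with replicate 1 as a covariate, there were 916 higher and 3514 lower sites, and 72 higher RNA genes. With 1 library left out, RNA interaction counts were 78 to 182 higher and 212 to 315 lower, and KO counts 4947 to 5187 rising and 4634 to 4859 falling. The direction reversed at the strongest sites of Ctla4 (-0.27 with TMM), Dusp4 (-0.23 with TMM, -0.17 with RLE and DESeq2), Mki67 (-0.44 with TMM, -0.38 with RLE and DESeq2) and at the Stat4 start (0.12 with loess). The cause was not tested.

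Replicate numbers did not pair the samples by the rule used (every same-number correlation over 0.1): deviations of same-numbered libraries correlated at 0.031 to 0.109 within KO and at -0.008 to 0.305 over all pairs, highest between replicates 1 of activated KO and WT. As a hint from the data, 11 of 12 libraries correlated best with their own number. With the replicate number as a block, 67637 sites opened and 31521 closed in KO, 67050 and 32766 in WT, the interaction gave 2699 higher and 6786 lower, and the RNA interaction 184 and 394. Depth limits sites near 0 in naive cells, where folds rest on a few counts.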
